A study of Homo sapiens with 6 samples.

Results

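Eph receptors and ephrins, the largest family of receptor tyrosine kinases and their membrane-bound ligands, were examined in cells labelled HSC2, a human line long established from an oral squamous carcinoma. The family was represented by 10 listed genes, the receptors EPHA1, EPHA2, EPHA4, EPHB2, EPHB3, EPHB4 and EPHB6 and the ligands EFNA1, EFNB1 and EFNB2. Every probe set (a group of short probes for a transcript) with a listed gene as its only symbol in the platform annotation was taken, which gave 13 of the 22215 probe sets tested and 9 of the 11963 genes measured. No probe set carried EPHB2 as its only symbol, so EPHB2 was not analysed here. Total RNA from 3 samples labelled as stably transfected with MALT1 cDNA (full-length, wild type) and 3 labelled as carrying the empty vector (mock) was hybridised to 6 single-colour Affymetrix arrays. MALT1 is a paracaspase that joins BCL10 in complexes leading to NF-kappaB, and the comparison was designed to find genes that respond to it. Both lines had been established earlier and were grown in the same serum-containing DMEM medium; the labels do not say whether either line is a single clone, or whether the 3 samples of a line were separate cultures. The spread behind each p-value is therefore that between these samples and may be a technical one.

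Ephrins bind Eph receptors on a neighbouring cell, and both partners stay in their membranes, so that the signal depends on contact. It runs forward through the receptor's kinase and in reverse through the ephrin. Ephrin-A ligands are tethered by a lipid anchor and bind mainly EphA receptors, whereas ephrin-B ligands span the membrane, bind mainly EphB receptors and also bind EphA4. In epithelia these contacts take part in cell adhesion, repulsion and the sorting of cells into layers or compartments, and EphA2 is widely studied in carcinomas.

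The targeted transcript, and the luminal breast markers of the arrays labelled MALT1, went against the labels. The groups are therefore named by their labels throughout. The HSC2 label is that of a squamous line, and squamous markers as a set were lower, but not absent, on the arrays labelled MALT1. On the probe set with its smallest adjusted p, MALT1 read 128, 124 and 107 on the arrays labelled MALT1 and 282, 242 and 236 on the arrays labelled mock (log2 difference -1.08 ± 0.12 SE, adjusted p = 0.0022). Of the 3 MALT1 probe sets, 2 passed and were lower, and the groups did not overlap on any of them; the position of the probes was not analysed here, so a cDNA without the probed part would not be measured. Of 15 measured squamous epithelium markers, 14 were lower on the arrays labelled MALT1 and 1 did not pass (summed signal 26188 to 29055 against 65883 to 74894 on the arrays labelled mock), with LAMB3, ITGA6 and SERPINB5 at the smallest adjusted p. Of 18 luminal breast epithelium markers, 16 were higher, 1 was lower and 1 did not pass (summed signal 94593 to 101650 against 12526 to 13259), led by KRT19, TFF1 and KRT8. Among markers of other cell types, PTPRC of leukocytes and CDH5, VWF and KDR of endothelium lay at or below 17.6 on all 6 arrays. The value 17.6 is the highest signal of a bacterial control transcript (trp) on any array and is used here as the level for dim signals. Other markers were not all dim. CD53 of leukocytes read 36.8 to 56.5 with the MALT1 label against 42.9 to 52.5 with the mock label. COL1A1 of fibroblasts read 57.7 to 83.5 against 53.1 to 94.8, and PECAM1 of endothelium 14.4 to 28.8 against 17.5 to 23.1. Over all 5 endothelial markers the signals summed to 33.5 to 44.6 with the MALT1 label against 30.2 to 52.5 with the mock label, over 5 measured leukocyte markers 162 to 250.2 against 399.9 to 437 (LCP1 was lower and CD14 higher), and over 6 fibroblast markers 118 to 244 against 121 to 183 (LUM was lower). CD14 was dim on all arrays labelled mock and read 7.41, 27.1 and 18.2 on those labelled MALT1. LUM was dim on all arrays labelled MALT1 and read 17.8, 19.2 and 21.2 on those labelled mock. Both calls therefore lie near the level for dim signals. The part of these marker shifts in the results that follow was not tested. In bulk RNA, fewer cells of a type and less RNA per cell cannot be told apart.

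EPHA2 had the largest fall of the members, and EPHB3 and EFNB2 each had 2 probe sets with an adjusted p under 0.05. The promoter windows of these 3 members are shown as examples. Each runs from 250 bases before to 50 bases after a transcription start in RefSeq's GRCh38.p14 annotation (EPHA2 at chr1:16156020-16156319, minus strand; EPHB3 at chr3:184561535-184561834, plus strand; EFNB2 at chr13:106535613-106535912, minus strand), and is written 5′ to 3′ along the gene. Capitals mark matches on either strand to the motifs searched.
EPHA2: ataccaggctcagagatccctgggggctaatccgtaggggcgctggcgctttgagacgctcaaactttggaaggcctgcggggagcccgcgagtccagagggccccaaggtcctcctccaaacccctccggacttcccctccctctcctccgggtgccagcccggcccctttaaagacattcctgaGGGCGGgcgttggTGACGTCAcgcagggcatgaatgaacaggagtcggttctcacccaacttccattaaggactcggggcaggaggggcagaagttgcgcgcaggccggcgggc
EPHB3: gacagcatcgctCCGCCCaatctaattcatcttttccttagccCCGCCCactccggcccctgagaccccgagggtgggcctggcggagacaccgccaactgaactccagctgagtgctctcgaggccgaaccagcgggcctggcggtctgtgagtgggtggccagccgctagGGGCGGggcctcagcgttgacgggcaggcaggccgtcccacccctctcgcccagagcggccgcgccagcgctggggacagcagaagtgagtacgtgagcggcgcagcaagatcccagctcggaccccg
EFNB2: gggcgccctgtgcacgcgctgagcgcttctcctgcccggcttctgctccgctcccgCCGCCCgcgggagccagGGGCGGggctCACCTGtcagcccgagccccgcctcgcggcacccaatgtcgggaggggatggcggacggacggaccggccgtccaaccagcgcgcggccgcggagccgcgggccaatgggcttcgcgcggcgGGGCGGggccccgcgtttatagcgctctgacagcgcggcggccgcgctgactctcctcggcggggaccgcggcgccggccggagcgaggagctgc

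All 10 listed genes matched the promoter table, with 12 windows, since EPHA4 and EPHB2 have 2 starts each; those of EPHB2 lie 1 base apart, so its windows are nearly the same sequence. The GC box (GGGCGG), a site for SP1-like factors, was found in 12 of the 12 windows and in 45.0% of all 35116 windows of the table; the member windows had a median GC content of 70.3%, against 58.7% over all windows. The cAMP response element (TGACGTCA) was found in 1 of 12, the EPHA2 window, where it spans bases 200 to 207, against 1.85% of all windows. The E-box bound by Snail-type repressors (CAGGTG) was found in 4 of 12 windows, those of EPHA1, EFNB2 and both of EPHB2, against 20.6%. The AP-1 motif (TGANTCA) was in 0 of 12 windows against 7.71%, and the kappaB consensus in 0 of 12 against 11.3%. No motif match overlapped one of another kind in the 3 windows printed. These are matches of letters only; binding was not measured.

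Of the 13 member probe sets, 4 rose and 4 fell from the arrays labelled mock to those labelled MALT1 at an adjusted p under 0.05, and 5 did not pass. Over all 22215 probe sets, 35.6% passed, 18.6% higher and 17.0% lower, so the member share of 61.5% stood above that of the whole array; the members were listed with earlier results of these data known, and no test was made of this share. A log2 difference of at least 1 in either direction, with an adjusted p under 0.05, was found in 5 of the 13. The share over all probe sets was 18.0%. These 5 include the dimmer EPHB3 probe set, whose fold is only a bound of at least 1.62. The groups did not overlap in 10 of the 13, against 49.7% of all probe sets. The median log2 difference was 0.19 over the members and 0.08 over all probe sets, and the median size of the difference regardless of sign was 0.70 against 0.54. Every difference is given as the arrays labelled MALT1 minus the arrays labelled mock on the scale of log2(signal + 1), and folds are ratios of the geometric means of the signals. The EphB receptors that passed rose, EFNB1 and EFNB2 fell, and the EphA receptors went both ways.

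**Figure D1:**
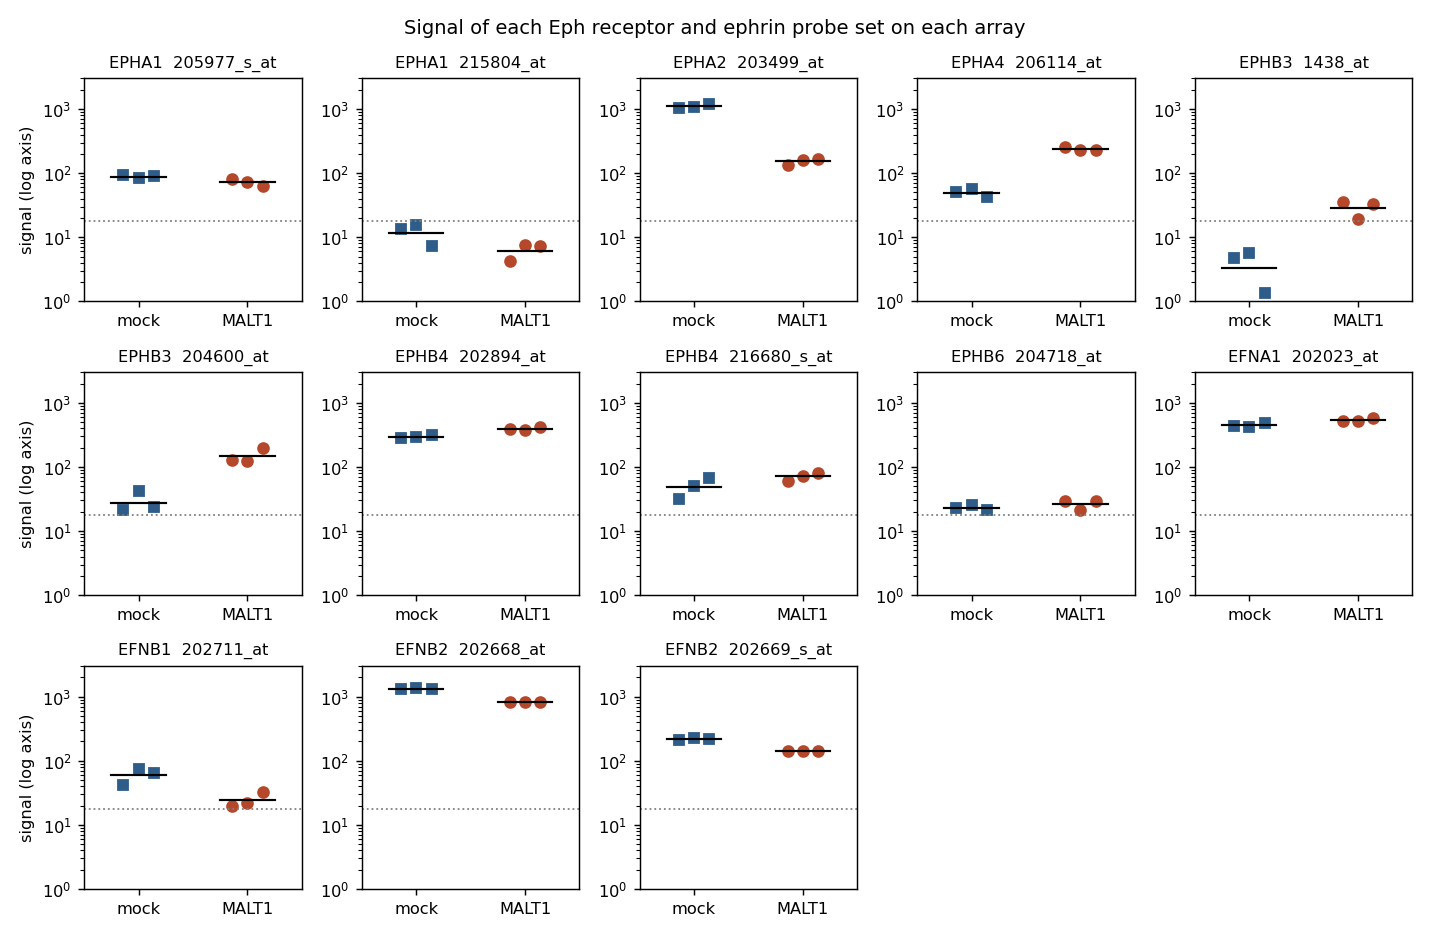
Signal (log axis) of each of the 13 member probe sets on the 3 arrays labelled mock (squares) and the 3 labelled MALT1 (circles), with the geometric mean of each group as a bar and the level for dim signals, 17.6, as a dotted line. EPHA2 lay between 134 and 166 on the arrays labelled MALT1 and between 1044 and 1187 on the arrays labelled mock, while EPHA4 and EPHB3 lay higher on the arrays labelled MALT1.

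EPHA2, the EphA receptor of many epithelia and carcinomas, showed the largest fall of the family. Its single probe set read 134, 160.5 and 166 on the arrays labelled MALT1 and 1044, 1089 and 1187 on those labelled mock. All 3 of the former were far below all 3 of the latter. The means were 154 ± 17.1 and 1107 ± 73.0 (SD, n = 3 each), 7.22-fold lower (log2 difference -2.84 ± 0.12 SE, adjusted p = 0.00011). Over the whole array, 260 other probe sets had a log2 difference at least as low. The EPHA2 signal on the arrays labelled MALT1 remained well above 17.6, so the transcript was reduced on these arrays but still measured.

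EPHA4, an EphA receptor that also binds ephrin-B ligands, moved the other way. It read 256, 228 and 227 on the arrays labelled MALT1 and 50.0, 57.4 and 42.3 on those labelled mock, and no array of one group reached the range of the other. The means were 237 ± 16.2 and 49.9 ± 7.55 (SD, n = 3 each), 4.77-fold higher (log2 difference 2.23 ± 0.14 SE, adjusted p = 0.00032). EPHA2 and EPHA4 thus differed in opposite directions on the same 6 arrays, each by more than the spread within either group.

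EPHA1, the founding member of the family, did not pass on either probe set. The brighter one read 81.2, 72.1 and 64.0 against 92.1, 83.3 and 88.8, with every array labelled MALT1 slightly below the others (log2 difference -0.28, 95% interval -0.59 to 0.02, adjusted p = 0.13). The other lay at or below 17.6 on all 6 arrays, at 4.31 to 7.55 against 7.17 to 15.45, and no fold is given for it.

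EPHB3, an EphB receptor of intestinal and other epithelia that binds ephrin-B ligands, rose on both of its probe sets. The brighter read 130.1, 123 and 200.4 on the arrays labelled MALT1 and 21.0, 42.5 and 23.9 on those labelled mock. MALT1 replicate 3 was the highest of its group and mock replicate 2 of its own, and the groups stayed apart. The means were 151 ± 42.8 and 29.1 ± 11.7 (SD, n = 3 each), 5.32-fold higher (log2 difference 2.37 ± 0.34 SE, adjusted p = 0.0045). Without MALT1 replicate 3 the log2 difference was 2.15 (adjusted p = 0.015). The second EPHB3 probe set read 35.9, 19.6 and 33.4 against 4.79, 5.69 and 1.35, so that the arrays labelled mock were all dim. Its rise is therefore a bound, at least 1.62-fold against the level for dim signals (log2 difference 2.72 ± 0.48 SE, adjusted p = 0.0096).

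EPHB4, the receptor best known for its pairing with ephrin-B2 in blood vessels, rose on 1 of its 2 probe sets, and by little. On the brighter it read 397, 370.1 and 422 against 279, 298 and 318, without overlap. The means were 396 ± 25.9 and 298 ± 19.6 (SD, n = 3 each), 1.33-fold higher (log2 difference 0.41 ± 0.10 SE, adjusted p = 0.029). The call was lost without MALT1 replicate 1 (adjusted p = 0.086), MALT1 replicate 2 (adjusted p = 0.051), MALT1 replicate 3 (adjusted p = 0.066), mock replicate 1 (adjusted p = 0.09) or mock replicate 2 (adjusted p = 0.09), and also when each array was centred on its median (log2 difference 0.28, adjusted p = 0.14). On the dimmer it read 61.3, 72.7 and 80.5 against 31.6, 51.2 and 68.1, and the groups overlapped (log2 difference 0.56, 95% interval -0.21 to 1.33, adjusted p = 0.23).

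EPHB6, a member whose kinase domain is catalytically inactive, was close to the level for dim signals in both groups. It read 29.45, 21.5 and 29.2 on the arrays labelled MALT1 and 22.8, 25.5 and 21.0 on the others, and the groups overlapped (log2 difference 0.19, 95% interval -0.22 to 0.60, adjusted p = 0.43). A change of the size seen in EPHA4 or EPHB3 lies outside this interval, whereas one of the size seen in EPHB4 lies within it.

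The member ephrin-B ligands EFNB1 and EFNB2 were lower on the arrays labelled MALT1, while EFNB3, which is not a member and is given with the other family genes, did not pass. EFNB2, the ligand of EphB4 and of other EphB receptors, read 823, 825 and 813 on its brighter probe set, against 1298, 1375 and 1316. The 3 arrays labelled MALT1 lay within a narrow range, clearly under the other group. The means were 820.1 ± 6.08 and 1329.9 ± 40.2 (SD, n = 3 each), 1.62-fold lower (log2 difference -0.70 ± 0.08 SE, adjusted p = 0.002). The second EFNB2 probe set read 142, 143 and 144 against 208, 225 and 218 and gave nearly the same difference, 1.52-fold lower (log2 difference -0.60 ± 0.08 SE, adjusted p = 0.0036).

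EFNB1, an ephrin-B ligand encoded on chromosome X, read 19.4, 22.2 and 32.0 on the arrays labelled MALT1 and 42.1, 75.6 and 64.0 on those labelled mock. The groups did not overlap, but the lower one lay just above 17.6. The means were 24.5 ± 6.62 and 60.5 ± 17.0 (SD, n = 3 each), 2.45-fold lower (log2 difference -1.26 ± 0.29 SE, adjusted p = 0.024). This call was lost without MALT1 replicate 1 (adjusted p = 0.075), MALT1 replicate 2 (adjusted p = 0.076), mock replicate 2 (adjusted p = 0.071) or mock replicate 3 (adjusted p = 0.078).

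EFNA1, the ephrin-A ligand of EphA2 and an early response gene of endothelial cells, did not pass. It read 526, 517 and 577 on the arrays labelled MALT1 and 429, 422 and 480.03 on those labelled mock, so that every array of the former lay above every array of the latter. The means were 539.95 ± 32.4 and 444 ± 31.8 (SD, n = 3 each; log2 difference 0.28, 95% interval 0.03 to 0.54, adjusted p = 0.085). The call was gained when only probe sets with a mean log2 signal above the median of all were kept (adjusted p = 0.02). It was also gained with an intensity trend in the variance (adjusted p = 0.017). Counted by role, 4 of 9 receptor probe sets were higher and 1 was lower, and 0 of 4 ephrin probe sets were higher and 3 were lower. Over all probe sets 18.6% were higher and 17.0% lower. These counts rest on few genes, since 2 of the 4 rises were of EPHB3 and 2 of the 3 falls of EFNB2. Outside the members, the ephrin EFNA4 rose and the receptor EPHA3 fell. The difference between the roles was not tested.

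**Figure D2:**
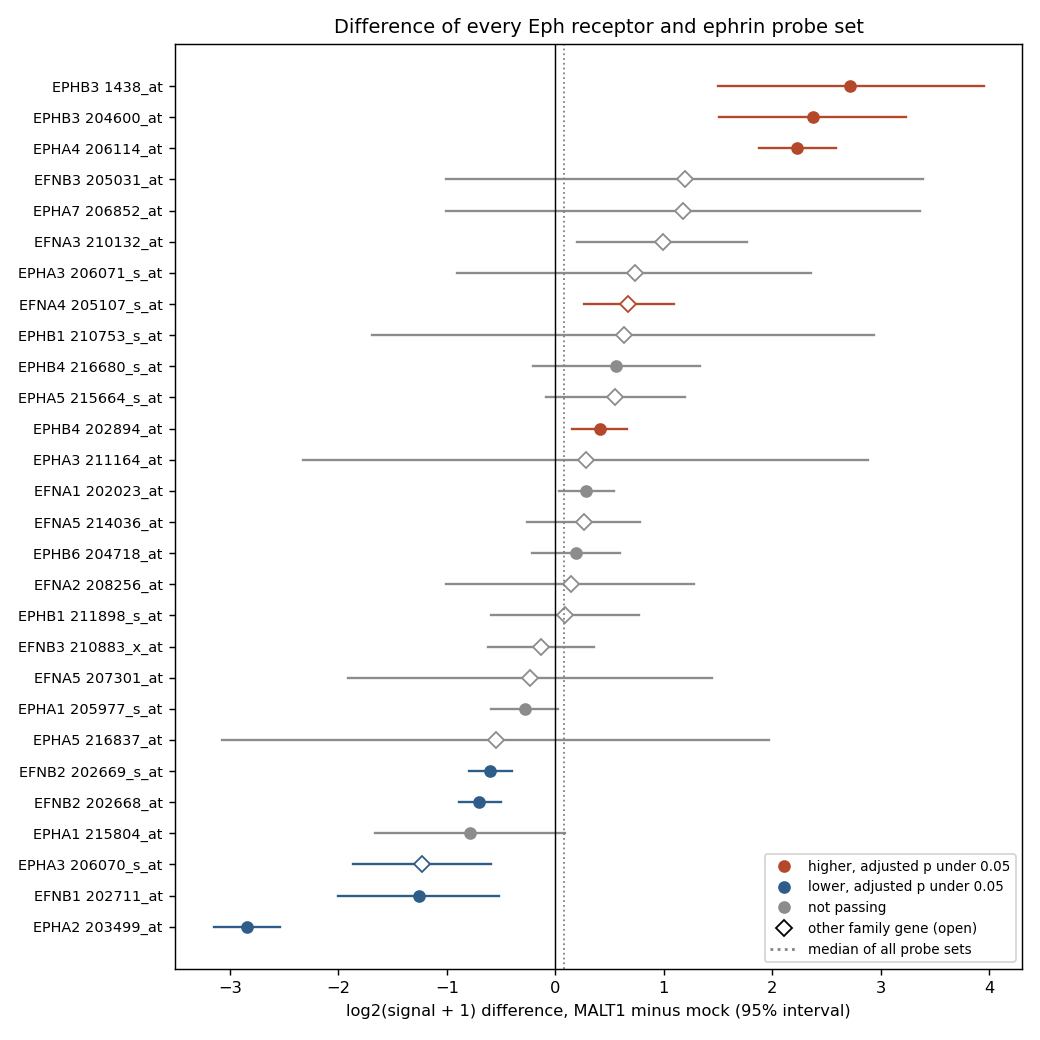
Difference in log2(signal + 1), MALT1 minus mock, with its 95% interval, for the 13 member probe sets (filled circles) and the 15 probe sets of other Eph receptors and ephrins (open diamonds); colour marks probe sets with an adjusted p under 0.05, and the dotted line is the median of all probe sets, 0.08. EPHA2 stands lowest at -2.84, and both EPHB3 probe sets and EPHA4 stand highest, from 2.23 to 2.72.

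The rest of the family added few calls. The other 9 Eph receptors and ephrins on the array had 15 probe sets, of which 6 lay at or below 17.6 on all 6 arrays, 1 was higher and 1 was lower. EPHA3, an EphA receptor, fell on its brightest probe set, which read 23.0, 23.3 and 18.5 against 71.5, 38.3 and 50.5 (log2 difference -1.23 ± 0.25 SE, adjusted p = 0.016), while its 2 other probe sets were dim on all 6 arrays. EFNA4, an ephrin-A ligand, rose from 93.4, 125 and 118 to 159.9, 172 and 205 (log2 difference 0.67 ± 0.16 SE, adjusted p = 0.028). EFNA3 read 66.6, 46.9 and 74.3 against 26.8, 23.5 and 45.1, without overlap, but did not pass (log2 difference 0.99, adjusted p = 0.061). EFNA5 read 128 to 205 against 120.4 to 139 on its brighter probe set, and EFNB3 38.4 to 57.1 against 45.9 to 60.7 on its brighter one, and neither passed. The second EFNB3 probe set varied widely, at 11.4, 64.9 and 98.6 against 28.0, 11.7 and 17.5, and did not pass either (log2 difference 1.19 ± 0.87 SE, adjusted p = 0.36). EFNA2, EPHA5, EPHA7 and EPHB1 did not exceed 22.5 on any array. Over all 28 probe sets of the family, 5 were higher and 5 were lower, 35.7% in all, close to the 35.6% of the whole array.

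The other genes of Eph signalling were followed in lists by role, each gene by its brightest probe set. Of 65 listed genes 56 were measured; 9 were higher, 19 were lower and 28 did not pass, a share of 50.0% against 40.2% over the brightest probe sets of all 11963 genes. The median log2 difference was -0.12, against 0.08 over all genes, and the median size regardless of sign 0.56 against 0.54. The balance depended on the probe set taken: with a gene's probe sets averaged, 12 were higher and 12 lower.

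Kinases that relay the signal were lower or did not pass. Of 10 measured, 0 were higher and 5 were lower, 50.0% against the 40.2% of all genes, with a median log2 difference of -0.57. LYN, a Src family kinase, read 108, 111 and 106 against 553, 582 and 549.7, 5.18-fold lower (log2 difference -2.36 ± 0.08 SE, adjusted p = 6.9e-05), and fell on all 3 of its probe sets. FYN, a Src family kinase that phosphorylates ephrin-B tails, fell on all 3 of its probe sets too, by 1.45 on the log2 scale on the brightest, and the focal adhesion kinase PTK2 fell on both of its own, by 0.78. SRC itself read 43.2, 10.2 and 12.2 against 218, 237 and 182 on 1 probe set (log2 difference -3.51 ± 0.56 SE, adjusted p = 0.0069), but its 2 other probe sets did not pass. The readings of 10.2 and 12.2 lie below 17.6, so the size of this fall is uncertain.

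Adaptors and lipid enzymes went both ways, with 6 of 11 higher, 4 lower and 1 not passing. The share called was 90.9% against the 40.2% of all genes, and this difference was not tested. The insulin receptor and Eph adaptor GRB10 read 226, 237 and 287 against 41.1, 43.9 and 42.0, 5.88-fold higher (log2 difference 2.53 ± 0.12 SE, adjusted p = 0.00015), and rose on 3 of its 4 probe sets. The PI 3-kinase subunit PIK3R1 rose on all 3 of its probe sets, by 1.24 on the log2 scale on the brightest. The adaptor GRB2 rose by 0.96 and INPPL1, the lipid phosphatase SHIP2 that binds EphA2, by 0.90 on the log2 scale. CRKL, CNKSR1, NCK1 and SHC1 were the 4 that fell, by 0.40 to 0.66 on the log2 scale. Of these, CRKL, NCK1 and SHC1 each fell on only 1 of 2 probe sets, and the other did not pass.

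Regulators of small GTPases showed the largest rise of any pathway gene. Of 6 measured exchange factors and GTPase-activating proteins, 2 were higher, 1 was lower and 3 did not pass, 50.0% called against the 40.2% of all genes. CHN1, the Rac-directed alpha-chimaerin that acts below EphA4 in neurons, read 963, 876 and 1049 against 45.1, 30.6 and 35.6, 26.2-fold higher (log2 difference 4.67 ± 0.17 SE, adjusted p = 8.2e-05). VAV3, an exchange factor recruited by Eph receptors, rose on both of its probe sets, by 4.33-fold on the brighter (log2 difference 2.11 ± 0.10 SE, adjusted p = 0.00013). ITSN1, an exchange factor for CDC42 that binds EphB2, fell by 0.45 on the log2 scale on its brightest probe set, with 2 of 5 probe sets lower and 3 not passing, and VAV2 did not pass. Among 6 GTPases, HRAS fell from 1694 ± 18.7 to 758 ± 57.2 (SD, n = 3 each; log2 difference -1.16) and RRAS by 0.45 on the log2 scale, while RHOA, RAC1, CDC42 and RAP1A did not pass on their brightest probe sets; CDC42 was higher on 1 of its 4 probe sets. The share called among the GTPases, 33.3%, was below the 40.2% of all genes.

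Of 6 partners of ephrin-B tails, which carry the reverse signal, 0 were higher and 2 were lower on their brightest probe sets, a share of 33.3% that was below the 40.2% of all genes. SDCBP, the PDZ protein syntenin, fell from 3781 ± 180 to 1428 ± 109 (SD, n = 3 each; log2 difference -1.41 ± 0.10 SE, adjusted p = 0.00045), and PTPN13, a phosphatase with PDZ domains, fell by 1.11 on the log2 scale. The other 4 partners did not pass, with GRIP1 dim on all 6 arrays. Of 8 genes of shedding and shut-off, 0 were higher and 4 were lower on their brightest probe sets, 50.0% against 40.2%. The ubiquitin ligase CBLB fell by 1.09, the phosphatases PTPN2 and PTPN1 by 0.86 and 0.67, and ADAM10, the protease that cleaves ephrins in contact with their receptor, by 0.48 on the log2 scale; PTPN2 passed on all 3 of its probe sets, ADAM10 on 2 of 3, CBLB on 1 of 2 and PTPN1 on 1 of 3. The protease ADAM17 and the phosphatase ACP1 did not pass on their brightest probe sets but were each higher on 2 of 3.

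**Figure D3:**
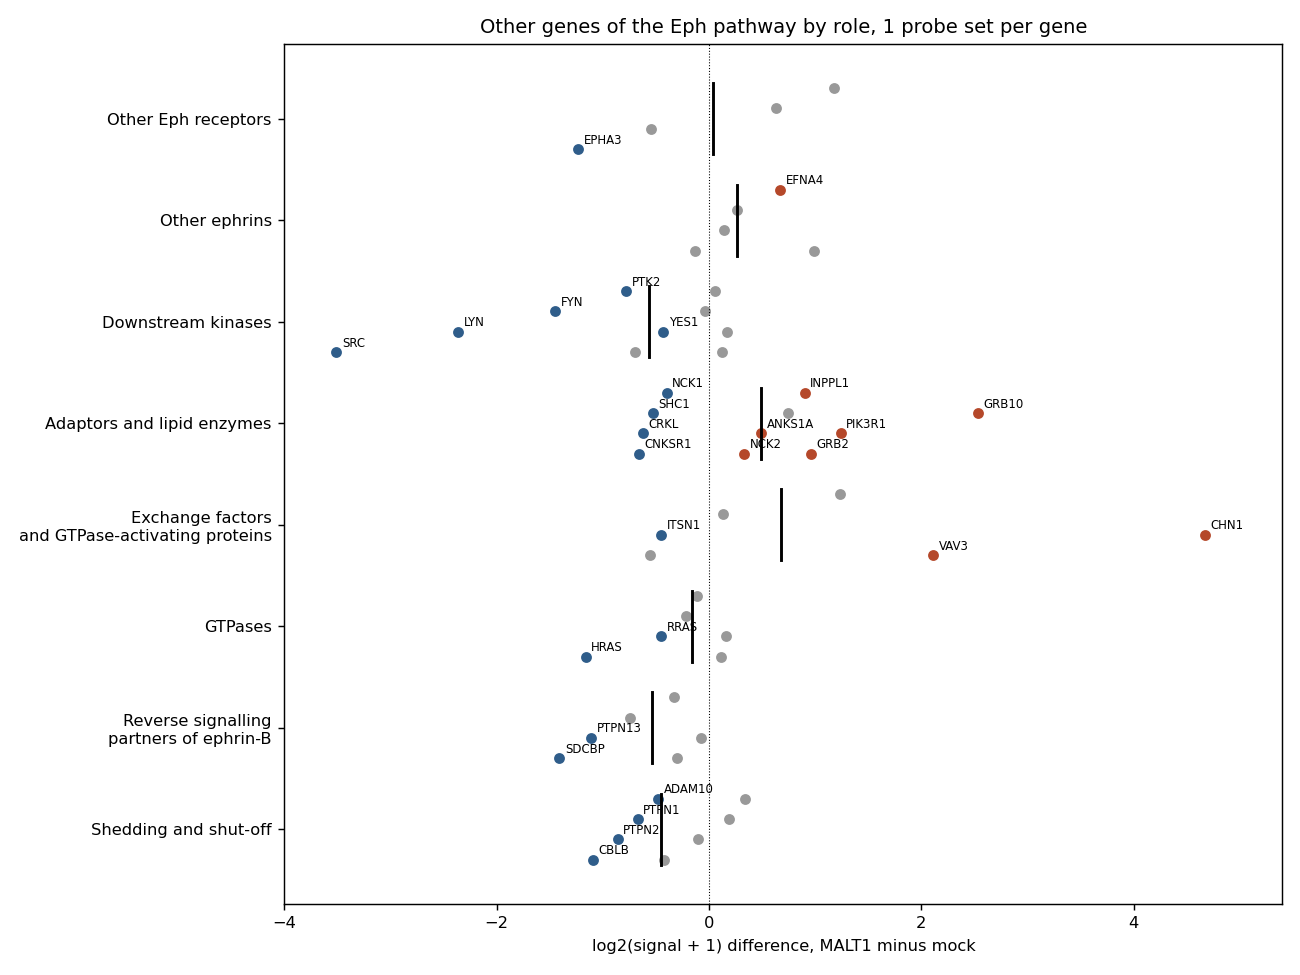
Difference in log2(signal + 1), MALT1 minus mock, of the 56 measured genes of Eph signalling that are not members, by role, with 1 point per gene, named where the adjusted p was under 0.05 (orange higher, blue lower, grey not passing) and a bar at the median of each role. CHN1 stands highest at 4.67 and SRC lowest at -3.51. The SRC signals on the arrays labelled MALT1 lay partly below 17.6, and its other probe sets did not pass. On these brightest probe sets no kinase, GTPase, ephrin-B partner or shut-off gene was called higher, although CDC42, ADAM17 and ACP1 were on other probe sets.

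Profiles most like those of the 2 members with the largest measured change in each direction were found by the root mean square distance between centred log2 profiles over the 6 arrays. With EPHA2, the nearest were NTM (distance 0.066), DCBLD2 (0.071) and GLIPR1 (0.078), which read 46.1, 138 and 138 on average on the arrays labelled MALT1 and 339.6, 1028 and 989 on those labelled mock. With EPHB3, the nearest were DTNA (0.154), ABAT (0.191) and KMT2D (0.206). DTNA was dim on all arrays labelled mock and KMT2D on all 6 arrays, so that only ABAT, at 116 ± 8.04 against 22.2 ± 6.74 (SD, n = 3 each), gave a measured fold, 5.34.

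**Figure D4:**
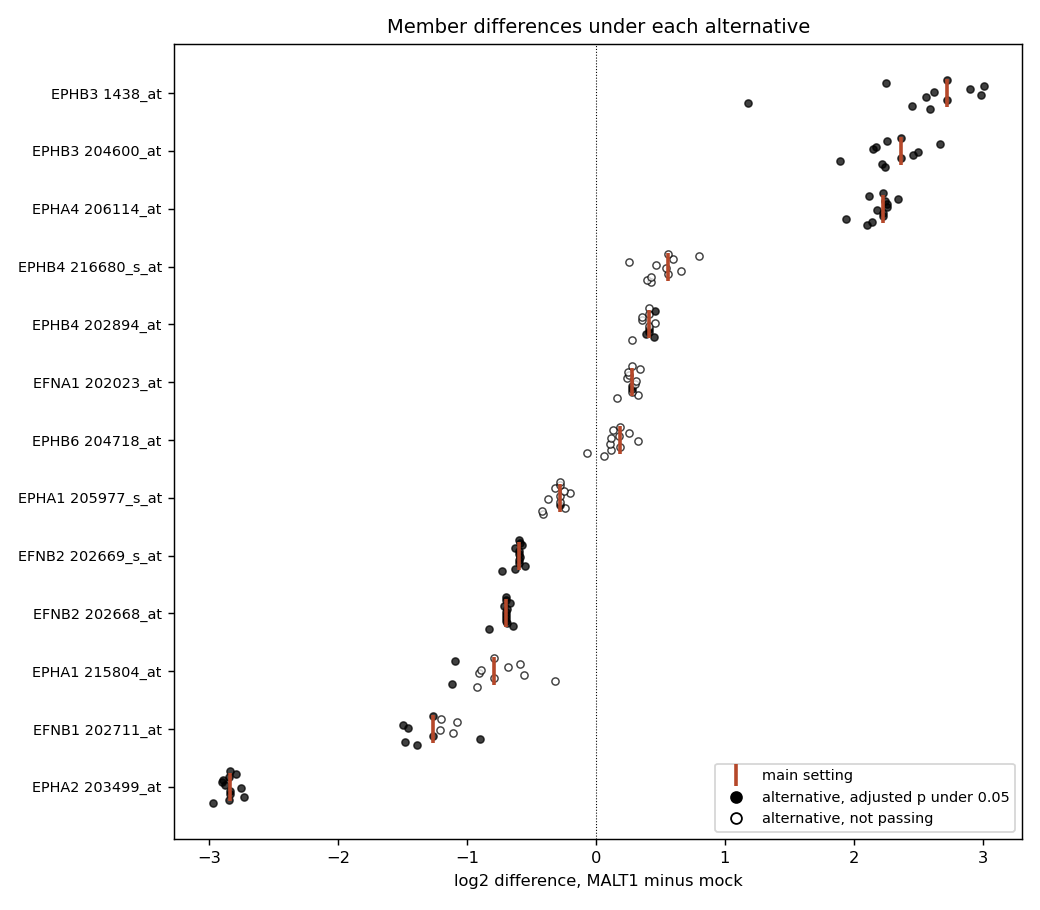
Difference in log2 signal, MALT1 minus mock, of each member probe set in the main setting (bar) and under each alternative (points, filled where the adjusted p was under 0.05), spread vertically for legibility. EPHA2, EPHA4, both EPHB3 and both EFNB2 probe sets were called under every alternative in which they were tested, and EPHB4 and EFNB1 lost their calls under some.

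The calls of EPHA2, EPHA4, EPHB3 and EFNB2 held under every alternative run that included their probe sets, as the plot of alternatives shows. The log2 difference of EPHA2 stayed between -2.97 and -2.73 over 12 alternatives, that of EPHA4 between 1.94 and 2.34, and those of EFNB2 between -0.83 and -0.64 and between -0.73 and -0.55. The EPHB3 probe sets ranged from 1.89 to 2.67 and, for the one dim on the arrays labelled mock, from 1.18 to 3.01 over 11 alternatives, where the lowest value came from adding 16 in place of 1 before the log.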

How the data were processed

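The deposited table held 1 linear intensity (signal) per probe set and array (summarising program: not given in the sources used here). Trizol extraction and biotin labelling by the array maker's procedure are stated per the labels. From the values, every array had been scaled to a mean of 500.1 to 500.2 after trimming 2% at each end, and the median signal was 64.1 to 79.0. Of 22277 probe sets, 62 controls were left out. Genes were named from probe sets with 1 symbol in the platform annotation (19064; 1043 had several and 2108 none), updated by gene ID through RefSeq GRCh38.p14, where 19052 matched. The test was that of limma 3.58.1 (R 4.3.3; lmFit, eBayes, group as the only term) on log2(signal + 1), with Benjamini-Hochberg adjustment over 22215 probe sets; the fit was tested on simulated data. For dim signals the added 1 makes differences smaller than the ratio of signals.

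The members and gene lists were chosen with earlier results of these data known. Genes were named by rule: all members, the other family genes, up to 4 genes per role and up to 3 per marker list by adjusted p, and the nearest profiles. Other names only complete a small count or show the range of a marker list. No batch or date was given in the labels. Precision is limited by having 3 arrays in each group. Alternatives were median centring, quantile normalization, 16 as the added value, a variance trend, each array left out, and the replicate number as a block. Another left out every probe set whose mean log2 signal was not above the median of all probe sets. That cut is not the level for dim signals.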

Additional observations from a re-analysis of the deposited data

How the results depend on the processing

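Of 151 member differences recomputed under alternatives, 134 kept their direction and their side of the threshold, 11 lost a call and 5 gained one; the lost calls were those of EPHB4 and EFNB1 and the gained ones those of EPHA1 and EFNA1. The difference of EPHB6 reversed with quantile normalization, to -0.07 on the log2 scale (adjusted p = 0.78); the cause was not tested. EFNB1 ranged from -1.50 to -0.90 over its alternatives (adjusted p from 0.0059 to 0.078), and EPHB4 on its brighter probe set from 0.28 to 0.46 (adjusted p from 0.0038 to 0.14). Median centring moved the median log2 difference of all probe sets from 0.08 to -0.05, and the calls that were higher from 52.2% of all calls to 43.1%. Leaving out 1 array gave 3 to 4 member probe sets higher and 3 to 4 lower.

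Same-numbered samples hardly deviated together (correlations of 0.06, 0.00 and 0.06 over brighter probe sets). Samples with different numbers gave correlations from -0.08 to 0.05. The replicate numbers were not taken to pair the samples, since the labels do not say what a number shares. With the replicate number as a block, 3 member probe sets were higher and 4 lower (EPHB4 lost its call, adjusted p = 0.075), and 12 pathway genes were lower in place of 19. With a gene's probe sets averaged, 12 pathway genes were lower; the cause was not tested. Dim signals limit EPHB6, EFNB1 and most other family genes, and a 95th percentile of the trp signals (15.1) in place of the highest left the same 2 member probe sets dim in a group.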
